A study of Mus musculus with 2 samples.

Results

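The hedgehog genes described here were chosen by name as parts of 1 signalling pathway, and they are 9 of the 20140 genes measured: Gas1, Boc, Cdon, Ptch1, Smo, Gli1, Gli2, Gli3 and Hhip. All 9 had values in every cluster of cells. They were followed in stromal cell preparations from the salivary glands of female C57BL6/J mice that were 14 weeks old. In the ligated group a metal clip had closed the excretory ducts (submandibular and sublingual) for 14 days, and in the mock group surgery exposed the ducts without a clip and 14 days of healing followed. Each group was 1 droplet library (10X Genomics) pooled from 2 glands, and how many animals these came from is not given in the sources used here. Both groups had been depleted of epithelial cells (with EpCAM antibody) and of red blood cells (with Ter119 antibody), and then of dead cells. The preparations are therefore stroma-enriched, and the epithelium, which in many organs makes hedgehog ligand, was largely removed. With 1 library a group there is no spread between replicates and no test, and every difference below describes these 2 libraries only.

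Hedgehog ligands are secreted proteins that bind Ptch1, a membrane receptor that keeps the signal transducer Smo off in their absence. Gas1, Boc and Cdon are co-receptors at the cell surface that help the ligand bind Ptch1. Active Smo works through the primary cilium on the transcription factors Gli1, Gli2 and Gli3, of which Gli2 acts mainly as an activator and Gli3 mainly as a repressor. Gli1, Ptch1 and Hhip (a membrane protein that captures ligand) are themselves target genes in many tissues, and Gli1 is used to mark mesenchymal cells around vessels and ducts.

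Values are mean levels per cluster, as the gene's UMIs in every 10000 that a cell held. A UMI stands for 1 captured RNA molecule, and the values are not divided by gene length. A mean cannot tell fewer cells with the RNA apart from less RNA per cell. The tables held 12 clusters of all cells (11406 ligated and 4199 mock cells) and 5 clusters of a subset (1935 and 401 cells) named for Pdgfra, Pdgfrb and Gli1. The fibroblast-like cluster 3 (1149 ligated and 188 mock cells) had the highest level of all 11 fibroblast markers examined, and the mural-like cluster 6 (420 and 161 cells; mural cells are pericytes and smooth muscle cells on vessels) that of 11 of 12 mural markers. Cluster 6 also had the highest level of 7 of 8 markers of myoepithelial (contractile epithelial) cells, a list that shares Acta2, Myh11 and Cnn1 with the mural one. Whether it held myoepithelial cells was not tested. Ligated and mock cells were set against each other where both numbered 50 or more, in 9 of the 12 clusters. In these, markers of other cell types stood at 7.37% to 25.1% (ligated) and 2.08% to 11.6% (mock) of their library mean, so low levels outside a gene's main cluster can be of that kind. For cluster 3 these left out mural markers as well, and for cluster 6 fibroblast and myoepithelial ones.

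Gas1 was by far the most abundant of the 9 genes in fibroblast-like and mural-like cells, and the only one whose level differed by the size rule used here between the libraries. Gas1 encodes a lipid-anchored co-receptor that was first described in growth-arrested fibroblasts. The gene lies on chromosome 13 (chr13:60174405-60177365, minus strand, mm10, ENSMUSG00000052957.8), and its exons overlap those of Gm48488 on the other strand, so reads of these genes cannot be told apart if strand was not used in counting. The 250 bases before its RefSeq start are shown because Gas1 met the size rule between the libraries. They are chr13:60177536-60177785 of GRCm38.p6, minus strand, 5′ to 3′, with CG pairs in capitals.
Gas1: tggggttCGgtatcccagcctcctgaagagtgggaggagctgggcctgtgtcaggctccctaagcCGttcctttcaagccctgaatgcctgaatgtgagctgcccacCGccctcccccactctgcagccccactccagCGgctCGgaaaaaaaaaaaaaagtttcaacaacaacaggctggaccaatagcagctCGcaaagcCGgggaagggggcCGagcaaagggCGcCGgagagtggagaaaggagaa
This stretch holds 10 CG pairs, against a median of 6 in the same 250 bases of all promoters in the RefSeq table, and its GC content is 58.8%. The GLI consensus GACCACCCA, searched on both strands (TGGGTGGTC on the other), is in none of the 7 promoters found for these genes, in windows of 300 bases that reach 50 bases past the start. It is in 83 of all 32851 promoters (0.253%), so rare that its absence from 7 gives no reading for these genes. For Cdon, Gli3 and Ptch1 the window also lay inside the annotated gene and not at its outer start. Gli1 and Boc were not matched to a promoter.

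Among the co-receptors, Gas1 was concentrated in 2 clusters. Its level was 4.65 (ligated) and 11.9 (mock) in fibroblast-like cells, and 1.37 and 3.59 in mural-like cells. In the Schwann-like cluster 9 it was 0.429 and 0.385, where the mock value rests on 17 cells. In the other 7 compared clusters it was between 0 and 0.0552, at most 9.80% of the ligated library mean and 6.57% of the mock library mean. Fibroblast-like and mural-like cells held 92.2% of all ligated Gas1 and 97.7% of all mock Gas1. Gas1 was thus a gene of both stromal cell types here, and in the other compared clusters its level relative to the library mean was below that of markers of other cell types, except in mock cells of the second endothelial-like cluster 4 (4.35% against 3.98%).

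Boc, an immunoglobulin-superfamily co-receptor, was highest in fibroblast-like cells, at 0.441 (ligated) and 0.581 (mock). The next compared clusters were the mural-like one, at 0.0907 and 0.0604, and the endothelial-like cluster 0, at 0.0562 and 0.0894. Cdon, its close relative, was also highest in fibroblast-like cells, at 0.222 and 0.513. In mural-like cells Cdon was 0.0327 and 0.00672, and in T cell-like cells of cluster 2 it was 0.0396 and 0.0418. The mural-like level was thus 29.5% and 30.2% of the fibroblast-like level for Gas1, but 20.6% and 10.4% for Boc, and 14.8% and 1.31% for Cdon. Of the 3 co-receptors, Gas1 was the one shared most evenly between fibroblast-like and mural-like cells in both libraries.

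The receptor Ptch1 had another distribution and was not highest in fibroblast-like cells. Like Smo, it was measured above 0 in all 12 clusters of the ligated library. The highest Ptch1 level was in Schwann-like cells, at 0.503 (ligated) and 0.554 (mock). That cluster was not compared, and its mock value rests on 17 cells. Ptch1 followed at 0.351 and 0.284 in the second endothelial-like cluster 4, and at 0.244 and 0.247 in the endothelial-like cluster 0. Cluster 4 had the highest level of 4 of 7 lymphatic markers. These summed to 10.8 (ligated) and 9.54 (mock) there, against 109 and 122 for 11 endothelial markers. Which vessel types it held was not tested. In mural-like cells Ptch1 was 0.274 and 0.156, and in fibroblast-like cells 0.140 and 0.133. In natural killer-like cells of cluster 1 it was 0.127 and 0.142, and in T cell-like cells 0.114 and 0.188. Fibroblast-like cells, which had the highest level of each of the 3 co-receptors, thus had less Ptch1 than endothelial-like cells in both libraries. The 2 endothelial-like clusters held 76.8% of all Ptch1 in the mock library, where they were 61.7% of the cells, and 44.9% in the ligated library, where they were 30.5% of the cells. Fibroblast-like and mural-like cells held 5.94% and 13.7%.

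Smo, the transducer that Ptch1 holds back, was highest in fibroblast-like cells, at 0.625 (ligated) and 0.711 (mock), and next in mural-like cells, at 0.428 and 0.276. It was 0.156 and 0.123 in endothelial-like cells, 0.157 and 0.186 in the second endothelial-like cluster and 0.161 and 0.134 in macrophage-like cells of cluster 5. In the Schwann-like cluster 9, which was not compared, it was 0.323 and 0.129, the mock value resting on 17 cells. In natural killer-like cells it was 0.00974 and 0.00438, and in T cell-like cells 0.00950 and 0.00614. Natural killer-like and T cell-like cells therefore had Ptch1 at a level near that of fibroblast-like cells, with Smo far below that of any stromal or endothelial cluster in both libraries.

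The Gli transcription factors were low. Gli3 was 0.208 (ligated) and 0.352 (mock) in fibroblast-like cells and 0.157 and 0.289 in mural-like cells, and at most 0.0217 in the other compared clusters. In the Schwann-like cluster 9, which was not compared, Gli3 was 0.173 and 0.102, the mock value resting on 17 cells. Gli2 was 0.0546 and 0.109 in fibroblast-like cells and 0.0591 and 0.0873 in mural-like cells. The only other Gli2 value above 0.01 in a compared cluster, 0.0497 in mock ductal-like cells, came from 1 UMI in a cell of 1001 UMIs. Gli1 was 0.0648 and 0.0664 in mural-like cells, and 0.0294 and 0.0479 in fibroblast-like cells. These Gli1 means are small in terms of molecules: at the median recovered cell total they correspond to about 13.5 ligated and 6.93 mock UMIs in the mural-like cluster, and to about 48.2 and 11.6 in the fibroblast-like cluster. In the endothelial-like cluster 0 Gli1 was 0.00879 and 0.00133. Its value of 0.0168 in ligated cells of the second endothelial-like cluster came from 1 UMI in a cell of 1124 UMIs. The same conversion would give about 5.47 UMIs for that value, so such figures are rough.

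Hhip was almost undetected. In the ligated library it came from 1 UMI in a fibroblast-like cell of 7551 UMIs and 1 UMI in a cell of 3449 UMIs of the unnamed cluster 8. It was listed at 0 in all 12 mock clusters, so no level or difference can be given for it. Of the 3 genes known as general hedgehog targets, Hhip was thus seen only as single molecules, and Ptch1 was spread over cell types. Gli1 was low, and among the 9 compared clusters of all cells it was highest in mural-like cells.

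**Figure D1:**
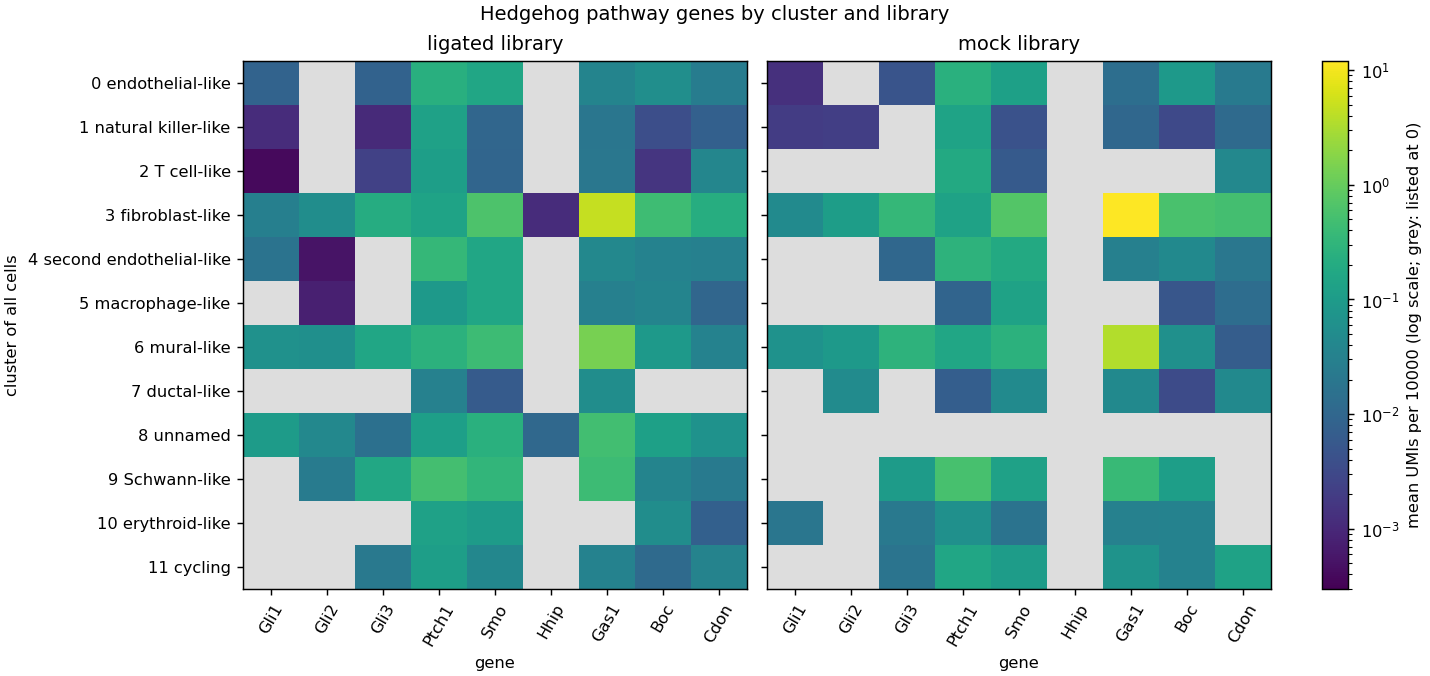
Level of 9 hedgehog genes in 12 clusters of all cells, in the ligated and the mock library, on a logarithmic colour scale of mean UMIs per 10000 UMIs. Gas1 stands out in the fibroblast-like and mural-like clusters, Ptch1 is present across clusters, and Hhip is nearly empty.

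**Figure D2:**
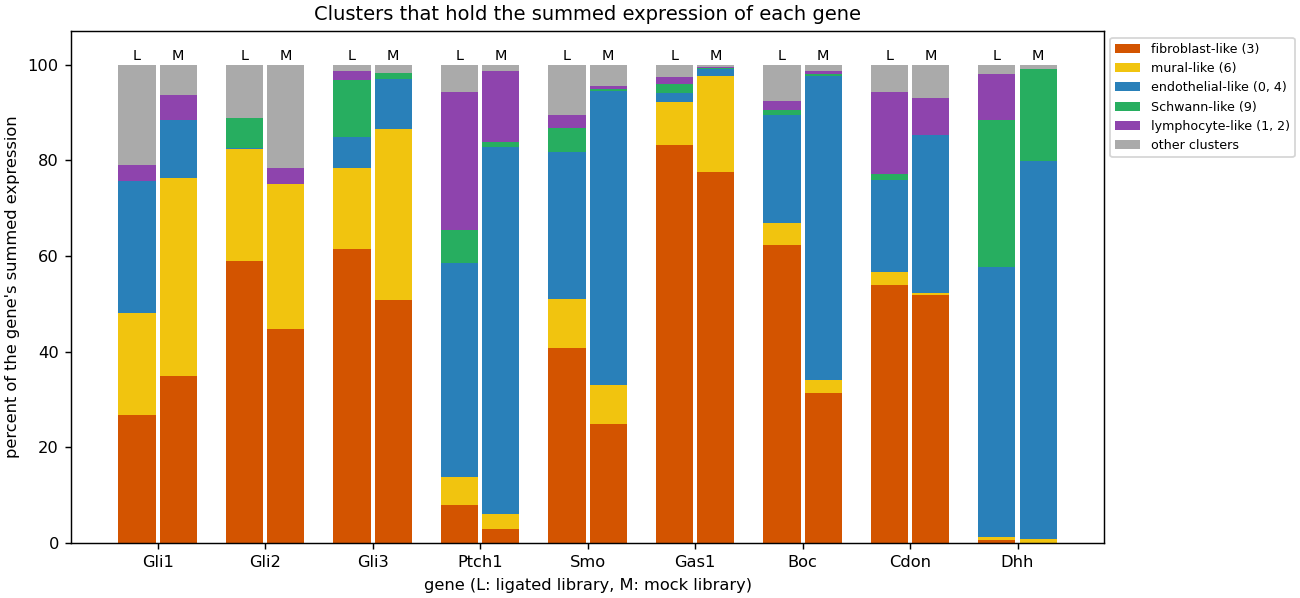
Percent of each gene's summed expression held by groups of clusters in each library, for 8 of the hedgehog genes and the ligand gene Dhh (Hhip is left out). Gas1 lies at 92.2% and 97.7% in fibroblast-like and mural-like cells, whereas Ptch1 lies at 44.9% and 76.8% in the endothelial-like clusters.

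The ligated library was then set against the mock library within each cluster. Differences are log2((ligated + 0.1)/(mock + 0.1)), a scale that makes low genes look less changed. The size rule counted a gene with a difference of 1 or more in either direction and a level of 0.5 or more in either library. In fibroblast-like cells Gas1 was lower in the ligated library by 2.55-fold, 4.65 against 11.9, a difference of -1.33. In mural-like cells it was lower by 2.62-fold, 1.37 against 3.59, also a difference of -1.33. No other hedgehog gene met the rule in any of the 9 compared clusters, so that 2 of 81 pairs of gene and cluster did, none of them higher. Only 5 of the 81 pairs had a value high enough to be counted, and 7 of the clusters had none.

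Of all genes high enough in fibroblast-like cells, 5.32% were lower in the ligated library by this rule, and in mural-like cells 4.5% were. Higher by the rule were 4.47% and 4.92%, so that 9.78% and 9.41% met it in either direction. In the 7 clusters with no hedgehog gene high enough, either direction was met by 6.6% (cluster 0), 4.56% (cluster 1), 5.34% (cluster 2), 6.1% (cluster 4), 8.48% (cluster 5), 26.5% (cluster 7) and 25.2% (cluster 10) of genes. Gas1 ranked 120 of 3762 genes from the lowest difference in fibroblast-like cells and 97 of 4069 in mural-like cells. It was therefore among the more strongly lower genes of both clusters, while 1 gene of the 4 high enough in fibroblast-like cells gives no reading for the pathway.

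Markers of both cell types were read beside Gas1. Of 11 fibroblast markers 3 met the same rule there, all lower in the ligated library: Dpt by a difference of -2.83, Clec3b by -1.18 and Pi16 by -1.08. The median over the 11 markers was -0.41, with a range from -2.83 to 0.78, the highest being Mfap5. In the fibroblast-like cluster of the subset the median over the 11 markers was 0.092 (range -3.54 to 1.15), and Pi16 was at 0.20. Dpt (-3.54) and Clec3b (-1.19) met the rule there as lower, and Mfap5 (1.15) as higher. In the mural-like cluster all 12 mural markers were lower in the ligated library, 4 of them by the rule, with a median difference of -0.67 (range -1.76 to -0.011) and a summed level of 138 against 222. Whether a different mix of cells within either cluster had a part in the Gas1 differences was not tested. Over all cells of a library the mean Gas1 level was 0.563 (ligated) and 0.685 (mock), a difference of -0.24, with fibroblast-like cells being 1149 of 11406 and 188 of 4199 cells.

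The other co-receptors were nearer to each other in the libraries. Cdon in fibroblast-like cells, at 0.222 against 0.513, differed by -0.93 and lay just outside the rule, with 6.01% of genes having a lower difference. Boc differed by -0.33 there and Smo by -0.16, with 25.3% and 39.6% of genes lower. Gli3 differed by -0.55 in fibroblast-like cells and by -0.60 in mural-like cells, and Gli2 by -0.44 and -0.23, all at levels under the minimum of the rule. Gli1 differed by -0.19 in fibroblast-like cells and by -0.014 in mural-like cells. Ptch1 was the exception in fibroblast-like cells, at a difference of 0.041.

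Among the genes with a mean of both values of at least 0.05, 6 of 7 hedgehog genes were lower in ligated fibroblast-like cells, with a median of -0.44. Over all 10516 genes with such a mean 54.7% were lower, with a median of -0.042. In mural-like cells 4 of 7 hedgehog genes were lower, with a median of -0.014, against -0.0014 over 10772 genes. In mural-like cells Ptch1 was higher in the ligated library, at 0.274 against 0.156 (a difference of 0.55), and so was Smo, at 0.428 against 0.276 (0.49). Smo and Ptch1 thus stood in mural-like cells on the other side of 0 from Gas1 and Gli3, in differences that did not meet the rule. Markers of other cell types stood at 22.8% of their library mean in ligated mural-like cells and at 2.76% in mock ones, and their part in the values of Smo and Ptch1 was not tested.

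**Figure D3:**
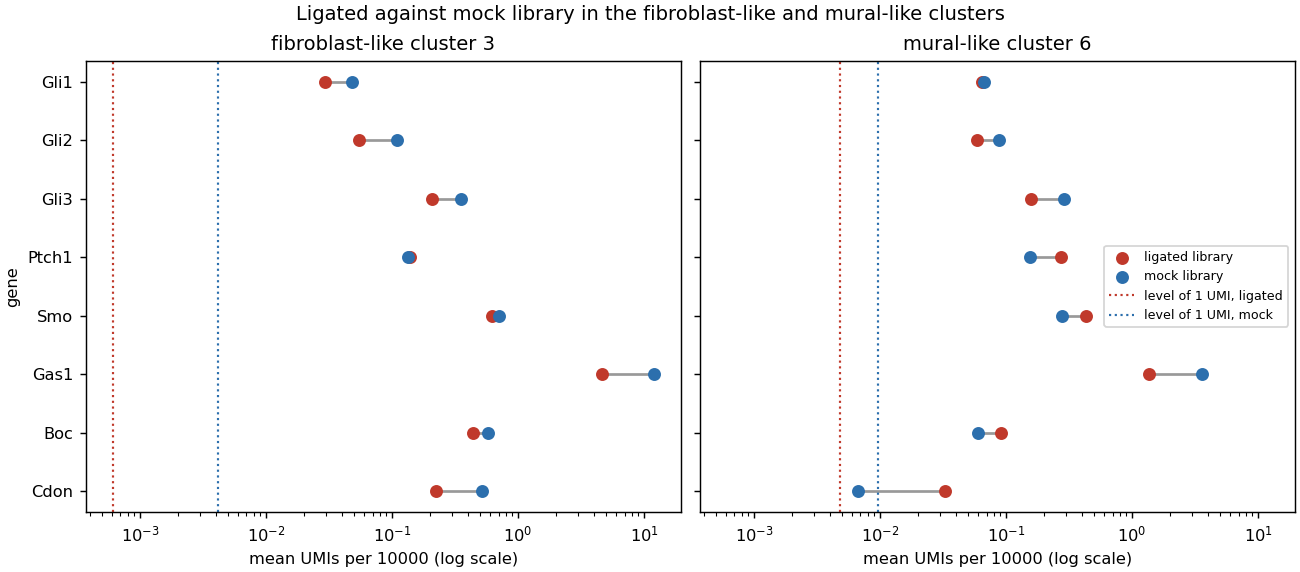
Ligated against mock library in the fibroblast-like and mural-like clusters, with mean UMIs per 10000 UMIs on a logarithmic axis, for 8 hedgehog genes (Hhip is left out); dotted lines give the level of 1 UMI at the median recovered cell total. Gas1 is the highest gene in both clusters and lower in the ligated library, while Smo is lower in ligated fibroblast-like cells (0.625 against 0.711) and higher in ligated mural-like cells (0.428 against 0.276).

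**Figure D4:**
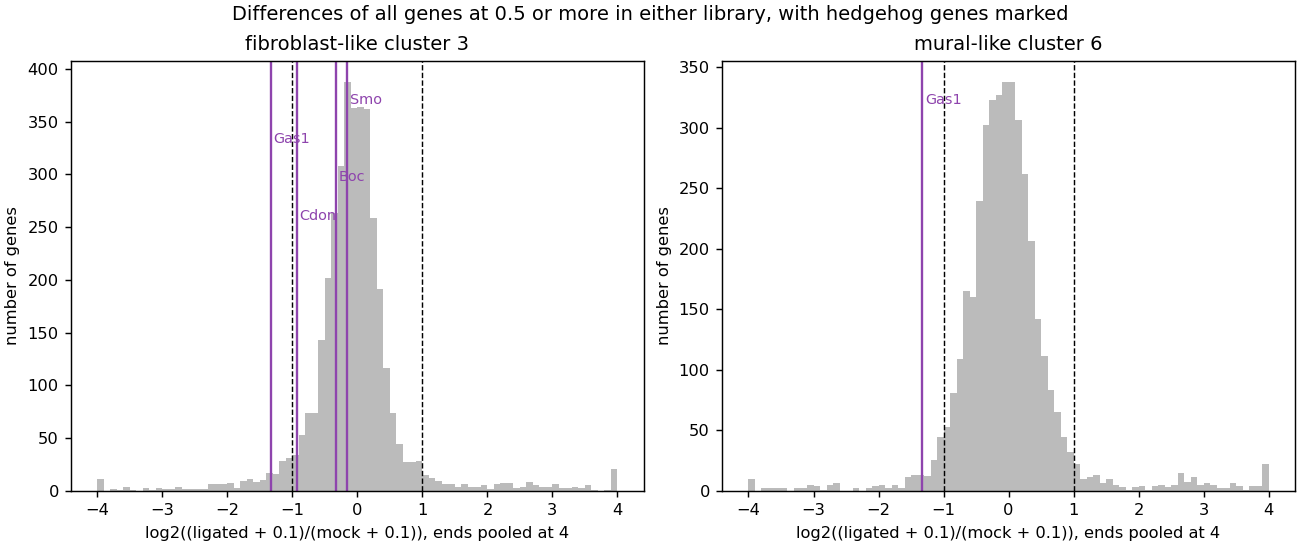
Differences of all genes with a higher value of at least 0.5 in the fibroblast-like and mural-like clusters, as histograms of log2((ligated + 0.1)/(mock + 0.1)), with the hedgehog genes that are high enough marked, dashed lines at -1 and 1, and values beyond 4 in size pooled at the ends. Gas1, at -1.33 in both, lies in the lower tail, and Boc and Smo lie in the main body of the fibroblast-like distribution.

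Fibroblast markers were read beside the hedgehog genes in mural-like cells. The marker level in the mural-like cluster was a median of 1.58% of their fibroblast-like level in the ligated library (range 0.404% to 6.61%) and of 0.395% in the mock library (0% to 9.81%, with Dpt listed at 0). The mural-like level of Gas1 was 29.5% and 30.2% of the fibroblast-like level, above the highest of the 11 markers in both libraries. For Gli3 it was 75.4% and 82.0%, for Smo 68.6% and 38.8%, for Gli2 108% and 79.7%, and for Gli1 220% and 138%. Boc, at 20.6% and 10.4%, was also above the highest marker, and Cdon was above it in the ligated library only, at 14.8%. In the mural-like cluster of the subset, 5 of 11 fibroblast markers were listed at 0 in the mock library (Pdgfra, Lum, Dpt, Serpinf1 and Clec3b), while the collagen genes Col3a1, Col1a2 and Col1a1 were at 5.27, 4.86 and 2.20 (at most 10.6% of their fibroblast-like level) and Gas1 was 4.15 (32.3%).

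**Figure D5:**
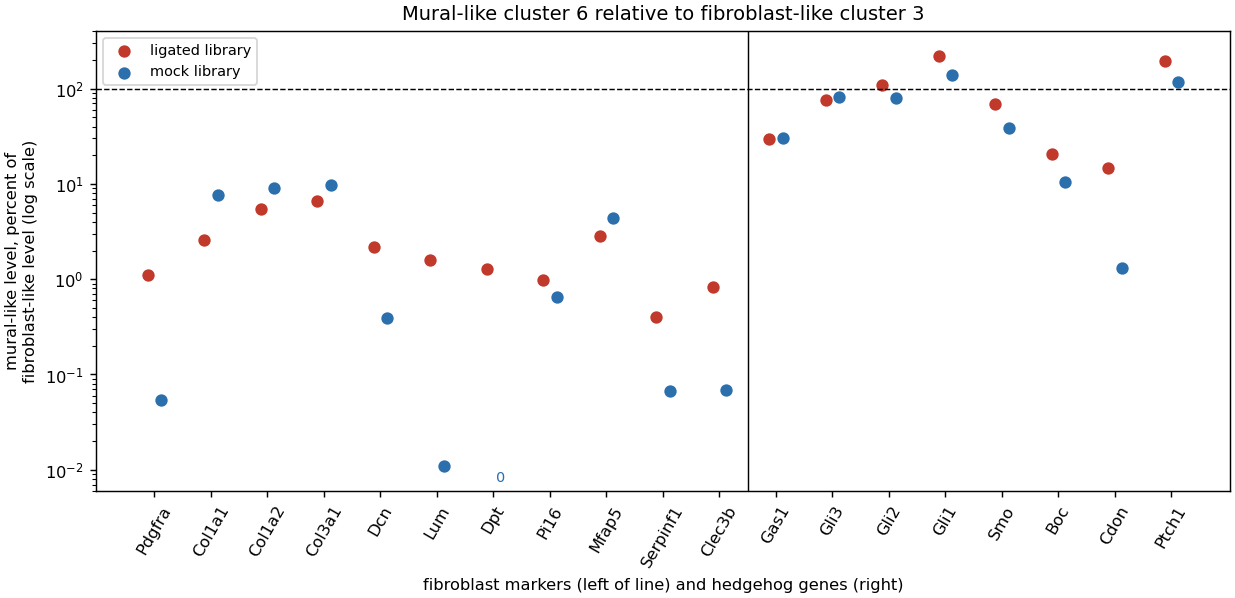
Level in the mural-like cluster as percent of the level in the fibroblast-like cluster, on a logarithmic axis, for 11 fibroblast markers and 8 hedgehog genes in each library. Gas1, at 29.5% and 30.2%, lies above all 11 markers, and Ptch1 and Gli1 lie above 100%.

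In the endothelial-like clusters no hedgehog gene reached 0.5. In cluster 0, where 6.6% of all counted genes met the rule in either direction, Ptch1 (0.244 ligated and 0.247 mock) and Smo (0.156 and 0.123) differed by -0.013 and 0.20. In cluster 4, with a background of 6.1%, Ptch1 differed by 0.23 and Smo by -0.15. Endothelial-like cells thus had like levels of the receptor and the transducer in both libraries. In macrophage-like cells Ptch1 was 0.0871 (ligated) and 0.00909 (mock, from 77 cells), while Smo differed by 0.16.

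The subset re-clusters cells of the same libraries, so it is a closer view and no second measurement. Of the cells that could be traced, 98.2% of 500 in its fibroblast-like cluster 0 came from the fibroblast-like cluster above, and 99.7% of 289 in its mural-like cluster 2 from the mural-like one. All Gli1 of the full tables lay in subset cells, 100% in both libraries, which the naming of the subset for Gli1 can fix by itself. Gli1 was 0.0525 (ligated) and 0.0506 (mock) in the fibroblast-like subset cluster, and 0.0760 and 0.0835 in the mural-like one. In the endothelial-like subset cluster described below it was 0.115 and 0.0649. Whether selection for Gli1 had a part in these levels was not tested. Gas1 was 4.91 (ligated) and 12.9 (mock) in the fibroblast-like subset cluster, a difference of -1.37, and 1.75 and 4.15 in the mural-like one, a difference of -1.20. These were the 2 of 27 pairs that met the rule, where 5.31% and 4.26% of all counted genes were lower by it, 4.75% and 4.26% were higher, and 10.1% and 8.51% met it in either direction. Smo in mural-like subset cells was 0.589 and 0.302, a difference of 0.78, and 93.9% of genes had a lower difference.

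The endothelial-like cluster 3 of the subset (260 ligated and 82 mock cells) differed from both. Gas1 there was 1.26 (ligated) and 0.746 (mock), a difference of 0.68 that was above 0. Of the 7 hedgehog genes with a mean of at least 0.05, 6 were higher in the ligated library (median 0.44, against 0.028 over 10371 genes), and Ptch1 was lower, at 0.220 against 0.455. The summed level of the 11 fibroblast markers in this cluster was 74.2 (ligated) and 21.3 (mock), and that of the 12 mural markers 13.5 and 21.3. None of the hedgehog genes met the rule in this cluster. Of all counted genes 6.29% met it by being higher and 4.23% by being lower (10.5% in all). Of its 132 traced cells 33.3% came from the fibroblast-like cluster of all cells and 30.3% from the mural-like one, so its hedgehog levels are those of a mixture. The part of fibroblast RNA in the differences was not tested.

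A small second fibroblast-like cluster (cluster 4 of the subset, 17 ligated and 10 mock cells) stood apart by its co-receptors. Cdon was 1.69 (ligated) and 1.39 (mock) there, against 0.204 and 0.440 in the larger fibroblast-like cluster. Gas1 was lower than in the larger cluster, at 1.14 and 1.90, and Boc was 0.0484 and 0. Its Cdon level was the highest of any cluster in both libraries, while its Gas1 and Boc levels were below those of the larger cluster. It made up 1.76% of ligated fibroblast-like subset cells (17 of 966, exact Clopper-Pearson 95% interval 1.03 to 2.80) and 5.65% of mock ones (10 of 177, 2.74 to 10.1), intervals that cover counting error only. In the larger cluster Cdon differed by -0.83 between the libraries. The part of this small cluster in the Cdon difference of all fibroblast-like cells was not tested.

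The wider pathway was read from 67 further genes in 5 lists, of which 64 had values (Shh, Lrp2 and Grem1 were not among the 20140 genes). In fibroblast-like cells 18 of the 64 were high enough, 3 were lower in the ligated library by the rule and 0 were higher, against 5.32% lower among all genes. Bmp4, a secreted growth factor and known mesenchymal target, was 0.581 (ligated) and 2.19 (mock), a difference of -1.75. Gpc3, a surface proteoglycan that binds hedgehog ligand and competes with Ptch1, was 0.155 and 0.677 (-1.61). Osr1, a transcription factor of connective tissue, was 0.461 and 1.06 (-1.05). In the fibroblast-like subset cluster the same 3 genes were lower, with differences of -1.79 for Bmp4, -1.37 for Gpc3 and -1.17 for Osr1, and Evc, which acts with Smo at the cilium, joined them at 0.213 and 0.532 (-1.01). The second fibroblast-like cluster was rich in Gpc3 (2.41 and 2.40) and Osr1 (4.04 and 2.63) as well as in Cdon.

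In mural-like cells 14 of the wider genes were high enough, 1 was higher and 1 lower, where 4.92% and 4.5% of all genes were. Ccnd1, the cell cycle gene of cyclin D1, was 1.14 (ligated) and 2.48 (mock), a difference of -1.06. Bcl2, a survival gene, was 0.959 and 0.378 (1.15), but it was also 5.84 and 5.82 in natural killer-like cells and 5.44 and 4.92 in T cell-like cells. With other cell types' markers at 22.8% in ligated mural-like cells, the part of such RNA in the Bcl2 value was not tested. In the mural-like subset cluster 0 of 15 wider genes met the rule, with Bcl2 at 0.538 and 0.376 and Ccnd1 at 1.34 and 2.43.

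The wider genes with the highest levels were general ones. They were Hsd11b1 (5.72 ligated and 4.80 mock, an enzyme that regenerates active glucocorticoid), the kinase gene Csnk1a1 (2.48 and 2.83) and the cyclin gene Ccnd2 (2.17 and 2.67) in fibroblast-like cells. In mural-like cells they were Ccnd2 (4.77 and 5.16), the protein kinase A subunit Prkar1a (3.50 and 5.09) and Csnk1a1 (3.08 and 3.96). In Schwann-like cells Sfrp1, a secreted Wnt modulator, led at 5.59 and 9.40. In the cells that held most Ptch1, the endothelial-like cluster 0, Csnk1a1 (3.55 and 4.06), Ccnd2 (3.20 and 2.89) and Prkar1a (2.999 and 3.04) led. None of these met the rule in these compared clusters.

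Ligand genes were scarce in these epithelium-depleted cells, and Shh was not among the 20140 genes with values. Dhh, the ligand gene known from Schwann cells and endothelium, was chosen for description after its values were seen. It was 0.311 (ligated) and 1.53 (mock) in Schwann-like cells, 0.205 and 0.311 in the second endothelial-like cluster and 0.0155 and 0.0153 in the endothelial-like cluster 0. The mock Schwann-like value rests on 17 cells and was not compared. The endothelial-like clusters held 56.5% of ligated and 79.1% of mock Dhh, and Schwann-like cells 30.8% and 19.4%. Ihh was at most 0.00127 in the fibroblast-like cluster and 0 in the endothelial-like, mural-like and Schwann-like ones.

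For the 6 hedgehog genes with a highest mean of at least 0.2, which leaves out Gli1, Gli2 and Hhip, the genes whose levels followed theirs most closely over the 12 clusters were named by Pearson's r of log2(mean + 0.1), among 10590 genes with such a mean. The clusters share their libraries, so r is a description. For Gas1 they were Lsamp (r = 0.993), Ntrk2 (0.993) and Rbms3 (0.987). They encode an adhesion molecule, a neurotrophin receptor and an RNA-binding protein. For Gli3 they were Efemp2 (0.977), Adamts12 (0.975) and Nlgn2 (0.970), for Boc Thbs1 (0.968), Colec12 (0.962) and Bicc1 (0.961), and for Cdon Steap3 (0.950), Pdpn (0.940) and Ank (0.935). For Smo they were Cbr3 (0.969), Arhgef40 (0.944) and Adam9 (0.941). For Ptch1 they were Tapt1, Exoc6b and Gsk3b, each at 0.947 and highest in Schwann-like cells. These genes did not all share a direction between the libraries: in fibroblast-like cells, where 9.78% of genes met the size rule, the differences ran from -2.08 for Ntrk2 and -1.28 for Rbms3 to 0.53 for Efemp2 and 1.29 for Ank.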

How the data were processed

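The libraries were processed with Cell Ranger 6.0.1 and Seurat on mm10, per the submitters' processing notes. The authors deposited mean expression per cluster, with both libraries together and split by condition, per the file headers. Filters, clustering, doublet removal and the gene annotation are not given in the sources used here, and doublets were not called. The values are linear means of UMIs per 10000 UMIs of a cell (columns sum to 10000) and are neither raw counts nor a log scale, so count models do not apply. Where values were split by condition, dates stood in place of 21 gene names, and the order of genes gave them back. Ligated cells alone had values above 0 for 3150 genes (Hhip among them) and mock cells alone for 684. Every value column belonged to a library or to both (0 left out).

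Cell numbers were recovered from the weights that join the split means (largest residual 9.2e-08), and UMI totals of single cells from genes seen in 1 cell, at a tolerance of 1e-06. Such totals favour deep cells: their median was 14254 ligated and 12821 mock in fibroblast-like cells, and 4948 and 6486 in mural-like cells. The recovery was tested on simulated data. Clusters were named from marker lists. Exon overlaps come from GENCODE vM21, and promoters from RefSeq (GRCm38.p6, 7 of 9 genes matched).

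Alternatives changed the pseudocount of 0.1, the minimum value of 0.5, the minimum size of 1, the scaling and the minimum of 50 cells, and subtracted a share of the library mean. Genes named are the 9 members, of the wider lists the 3 highest in each cluster described and those past the rule in fibroblast-like or mural-like clusters, and the 3 most alike to each member. The members and lists were chosen with earlier results of these data known. Python 3.11.15, numpy 2.4.6, pandas 2.3.3 and matplotlib 3.10.9 were used.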

Additional observations from a re-analysis of the deposited data

How the results depend on the processing

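The count of 2 pairs of gene and cluster past the size rule, in all cells and in the subset, was 1 in each with a pseudocount of 1, where Gas1 remained past it in fibroblast-like cells (-1.19 and -1.23 in the subset) and not in mural-like cells, and 0 in each with a difference of at least 2. With a pseudocount of 0.01 it was 3 in all cells, Cdon in fibroblast-like cells joining at -1.17. After centring on the median of all genes Gas1 was -1.27 in fibroblast-like and -1.25 in mural-like cells, and after subtracting a share of the library mean -1.35 and -1.45. Without genes above 0 in 1 library only, a choice made after seeing the data, the share of genes lower by the rule was 4.67% in fibroblast-like and 3.74% in mural-like cells. None of 23 differences of hedgehog genes with a higher value of at least 0.2 changed sign under centring or subtraction, the 2 alternatives that can change a sign. No paired analysis was possible because each group is 1 library. For the same reason no library could be left out. Depth limits the lowest means, such as Hhip, seen as single UMIs, and Cdon in mural-like cells, which by the rough conversion above corresponds to about 6.80 ligated and 0.701 mock UMIs. No counts per cell were used here to give intervals.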

Other observations

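Ccnd1, a cell cycle gene listed among the mesenchymal targets, was also lower by the rule in ligated cells of the endothelial-like clusters 0 and 4. In these, 6.6% and 6.1% of all counted genes met the rule in either direction. In the endothelial-like cluster 0 it was 1.75 (ligated) and 4.45 (mock), a difference of -1.30, and 0.715 and 2.99 (-1.92) in cluster 4, the second endothelial-like one. In the endothelial-like subset cluster, where 4.23% of counted genes were lower by the rule, it was 1.07 and 3.36 (-1.56). That cluster is a mixture from the same libraries, with 33.3% of traced cells from the fibroblast-like cluster and 30.3% from the mural-like one. In macrophage-like cells Ccnd1 was 2.58 and 2.86 (-0.14). Of 17 wider genes high enough in cluster 4, 2 were lower by the rule and 1 was higher. Beside Ccnd1 these were Tgfb2, at 2.18 and 4.48 (-1.01), and Igf2, at 0.867 and 0.0765 (2.45), both growth factor genes and both chosen after their values were seen.

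Clusters with fewer than 50 cells in a library were not compared. In the unnamed cluster 8 (264 ligated and 25 mock cells) all 9 hedgehog genes were at 0 in the mock library, while the ligated cells had Gas1 at 0.490, Smo at 0.252, Boc at 0.126, Ptch1 at 0.118 and Gli1 at 0.101. Markers of other cell types stood at 101% of their library mean in these ligated cells. In cycling cells of cluster 11 (59 and 22 cells) Cdon was 0.0349 and 0.133, and Ptch1 was 0.116 and 0.161. The unnamed cluster 1 of the subset (435 and 14 cells) had Gas1 at 0.973 and 0.872.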
